A study of Mus musculus with 4 samples.

Results

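The 9 genes described here act in the capture, transport and storage of fatty acids, and they were followed in endothelial cells of the mouse heart from the embryo to the adult. They are Lpl, Gpihbp1, Cd36, Slc27a1, Fabp4, Fabp5, Pparg, Dgat2 and Thrsp, 9 of the 27998 genes in the files. They were chosen by name and not by a threshold on their values, but with earlier results of these data known. RNA was counted in single CD31+/CD45− cells (endothelial surface marker present, leukocyte marker absent) sorted from hearts of C57Bl6J mice. The stages were embryonic days 12 and 15 (E12 and E15), postnatal day 2 (P2) and 8 weeks of age (adult). Each stage had 1 library, and pools of 37 (E12), 48 (E15), 21 (P2) and 6 (adult) animals went into them. All cells were frozen and thawed before capture. No transgene, Cre line or treatment was involved. The embryonic hearts were digested with collagenase/dispase and freed of dead cells with a removal kit, whereas P2 and adult hearts also received collagenase II and their live cells were sorted again. Stage, library and procedure therefore cannot be told apart, and with 1 library per stage no test between stages was possible. Classes of cells were compared within each library and tested over the 4 libraries.

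Lipoproteins bring triglycerides to the heart, which burns fatty acids as its main fuel after birth. Lipoprotein lipase, encoded by Lpl, splits these triglycerides on the capillary surface, where Gpihbp1 carries and anchors it. Cd36 and Slc27a1 serve the uptake of the released fatty acids across membranes, and the binding proteins Fabp4 and Fabp5 carry them through the cytoplasm. Pparg is a nuclear receptor for fatty acid derivatives, which binds DNA together with a retinoid X receptor. Dgat2 makes triglycerides, and Thrsp is a nuclear protein of lipogenic tissues that responds to thyroid hormone.

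Endothelial cells were all cells with at least 1 unique molecular identifier (UMI, a tag on each captured transcript) of Pecam1, Cdh5 or Egfl7, which gave 2737 of 5732 cells at E12, 4195 of 6062 at E15, 5871 of 5884 at P2 and 4109 of 4242 in the adult. Endocardial cells, which line the heart chambers, were those with Npr3 or Tmem108 and neither Cldn5 nor Aplnr, and they numbered 1118, 1669, 1323 and 138 in that order. Coronary cells, from the vessels of the heart wall, were those with Cldn5 or Aplnr and neither Npr3 nor Tmem108, and they numbered 195, 574, 3460 and 2530. A further class needed at least 3 UMIs of the artery genes Cxcl12, Glul, Alpl and Nebl together, and it held 75, 28, 711 and 1848 cells, some of which were also coronary or endocardial. None of the 9 genes entered these rules. The median depth was 1241, 1013, 4531.5 and 1510 UMIs per cell. Levels are the UMIs of a gene summed over a group, as counts-per-million of the UMIs of that group (CPM), and brackets hold exact 95% intervals, which cover counting error only and no variation between animals.

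Other markers matched the endocardial and coronary labels. The 10 endocardial markers that the rule did not use summed to between 1005 and 4273 CPM in endocardial cells and between 147 and 321 CPM in coronary cells. The 10 capillary markers summed to between 651 and 5703 CPM in coronary cells and between 213 and 500 CPM in endocardial cells. The artery label held only in part in the embryo, where 2 of 75 such cells at E12 and 9 of 28 at E15 were also coronary. At E12 and E15 the cells that passed the artery rule carried mural and fibroblast markers at 2728 and 4008 CPM, against 318 and 203 CPM in coronary cells. At E12 they held artery markers that the rule did not use at 1010 CPM, against 676 CPM in coronary cells outside the class, and the capillary markers at 25.1 against 659 CPM. At E15 the artery markers were at 2025 against 688 CPM and the capillary markers at 772 against 1558 CPM. They are therefore called cells passing the artery rule. In the adult such cells carried artery markers at 1635 CPM against 612 CPM in the other coronary cells, beside capillary markers at 5591 and 5765 CPM. The class took in 45.0% of adult endothelial cells, so the artery label held only in part there as well. Markers of adipocytes, a cell type rich in several of these 9 genes, summed to between 0 and 3.75 CPM in every class and stage. Cardiomyocyte markers summed to between 18.3 and 108 CPM in coronary and endocardial cells, with 5 of 8 of them at 0 in E12 coronary cells. Immediate-early genes, a sign of stress in dissociated cells, were at 993, 1318, 6647 and 8416 CPM in coronary cells and at 1353, 1586, 3111 and 2061 CPM in endocardial cells. Their part in the results was not tested, and some of the values without such cells are given below.

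Some features of the E12 file touch its low values. That file holds every barcode, and barcodes of 1 to 100 UMIs, taken as empty droplets, held Fabp4 at 586 CPM, more than the 255 CPM of E12 coronary cells, and Cd36, Gpihbp1 and Lpl at 108, 98.6 and 35.6 CPM. Of the 6062 cell barcodes of E15, 5996 were among those low barcodes of E12, with a median of 15 UMIs, whereas 1258 of the P2 and 900 of the adult cell barcodes were, each with a median of 2. Low barcodes that were cells of E15 held Fabp4 at 1633 CPM, and those that were cells of none of the 3 other libraries held it at 418 CPM. Between any 2 libraries 25 to 60 called cells shared a barcode, at most 1.02% of a library. In 31 E12 barcodes rich in haemoglobin no UMI of Fabp4, Cd36, Gpihbp1 or Lpl was found, which allows up to 54.6 CPM.

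The 9 genes lie on 6 autosomes of the mm10 build and all are annotated as protein coding. Fabp5 (ENSMUSG00000027533, chr3:10012548-10016607, plus strand) and Fabp4 (ENSMUSG00000062515, chr3:10204088-10208576, minus strand) are 187480 bases apart. Cd36 (ENSMUSG00000002944) is at chr5:17781690-17888801 on the minus strand, and Pparg (ENSMUSG00000000440) at chr6:115360951-115490399 on the plus strand. Thrsp (ENSMUSG00000035686, chr7:97412938-97417730) and Dgat2 (ENSMUSG00000030747, chr7:99153658-99182719) are both on the minus strand. Lpl (ENSMUSG00000015568, chr8:68880491-68907448) and Slc27a1 (ENSMUSG00000031808, chr8:71568882-71587302) are on the plus strand, as is Gpihbp1 (ENSMUSG00000022579, chr15:75596628-75599481). Start sites were found in the RefSeq table (GRCm38.p6, which has the mm10 coordinates) for 4 of the 9 genes, with 8 starts in all.

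Upstream sequence is shown for Cd36 and Pparg, which were both higher in coronary than in endocardial cells at P2 and in the adult, from starts whose 250 upstream bases overlap no annotated exon. Both starts lie inside the annotated gene. Each line reads 5′ to 3′ on the strand of the gene and ends at the base before the start, and capitals mark matches, on either strand, to AGGTCA (the hexamer bound by nuclear receptors such as Pparg) or CCAAT.
Cd36 (chr5:17835897-17836146, minus strand): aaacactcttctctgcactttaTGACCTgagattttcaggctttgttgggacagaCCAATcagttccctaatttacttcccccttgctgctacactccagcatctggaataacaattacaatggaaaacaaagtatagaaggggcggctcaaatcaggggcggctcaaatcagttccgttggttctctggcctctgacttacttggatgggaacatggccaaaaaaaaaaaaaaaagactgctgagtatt
Pparg (chr6:115421816-115422065, plus strand): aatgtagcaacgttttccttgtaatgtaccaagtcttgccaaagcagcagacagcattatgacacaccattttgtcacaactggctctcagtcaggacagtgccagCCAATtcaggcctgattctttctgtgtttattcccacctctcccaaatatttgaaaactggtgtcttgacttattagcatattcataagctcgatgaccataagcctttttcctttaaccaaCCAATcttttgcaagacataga
The Cd36 window held AGGTCA on the reverse strand at 228 to 223 bases before the start and CCAAT at 195 to 191 bases before it. The Pparg window held CCAAT at 144 to 140 and at 22 to 18 bases before the start. Neither of these windows held the direct repeat AGGTCANAGGTCA. Windows of the other Pparg starts, not shown because they overlap annotated exons, held AGGTCA at 28 to 23 and at 9 to 4 bases before their starts. Which start these cells use was not tested. Over 32851 windows of the same length AGGTCA was found in 14.0%, CCAAT in 33.8% and the direct repeat in 0.0335%, so the matches are common ones and are given as a description.

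**Figure D1:**
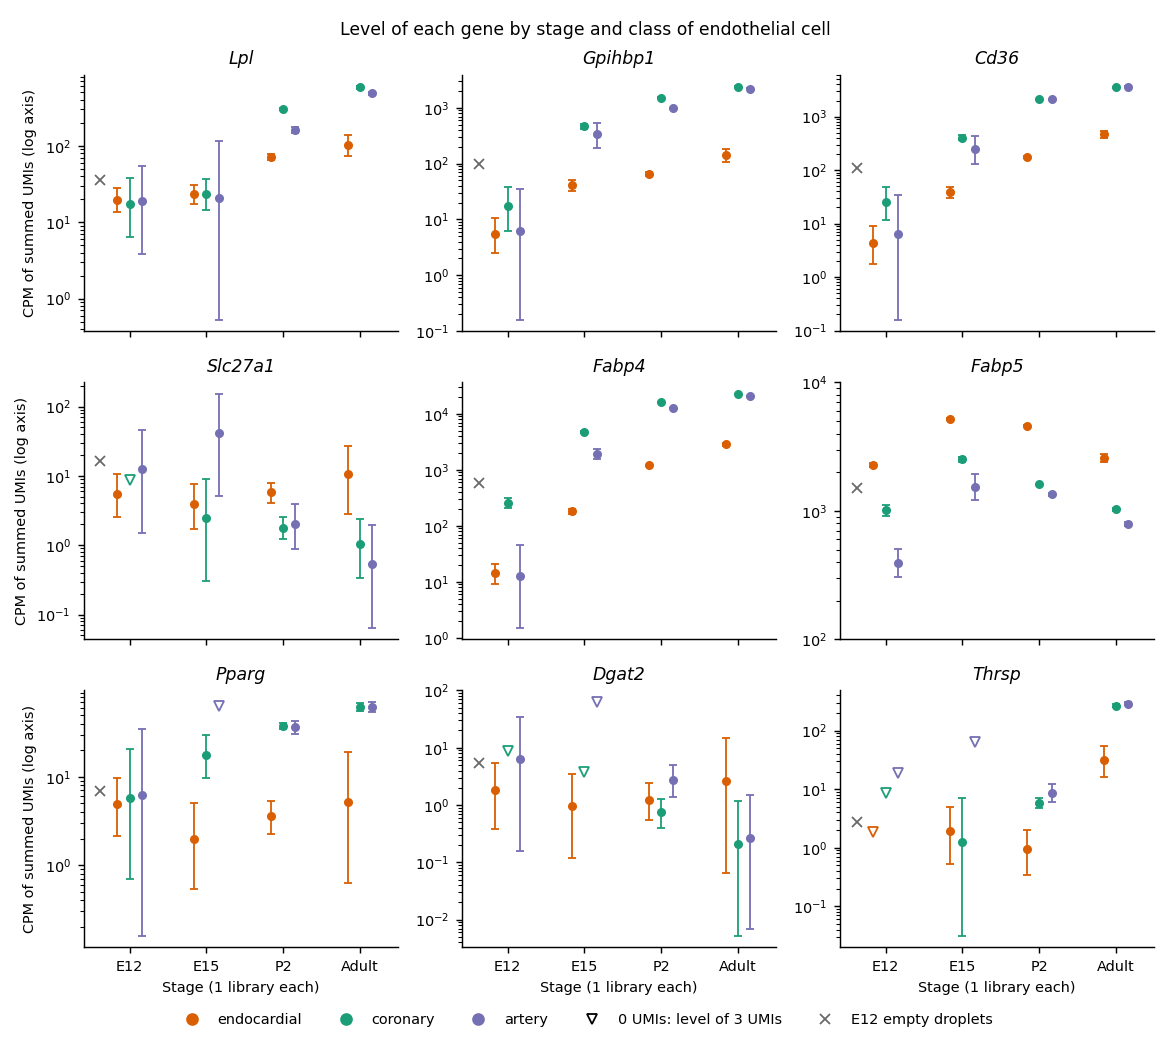
Level of each of the 9 genes in CPM (vertical axis, log scale) at the 4 stages (horizontal axis, 1 library each) in endocardial, coronary and artery-rule cells. Points are summed UMIs with exact 95% Poisson intervals, open triangles stand at the level of 3 UMIs where none was found, and crosses show the E12 empty droplets. Fabp4 spans 255 to 22406 CPM in coronary cells, while Fabp5 stays between 1010 and 2532 CPM there.

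Coronary cells carried more of Gpihbp1, Cd36, Fabp4, Lpl, Pparg and Thrsp than endocardial cells of the same library by P2. With all cells kept, they carried less of Fabp5 at every stage. The adult difference in Fabp5 was not seen without cells that held markers of other cell types, where 26 endocardial Fabp5 UMIs were left. This comparison asks how the 2 main endothelial lineages of the heart differ in these genes, and since both come from the same library, their handling is shared. A gene was counted as past 2-fold where the ratio of CPM was at least 2 or at most 0.5, among genes with at least 20 UMIs over both groups. A gene could reach 20 UMIs through the group where it was high alone, and this holds for the share of all genes too. At E12, 2 of the 3 members that could be judged were past 2-fold, and 17.3% of 7746 genes were. The E15 library gave 4 of 5 members against 18.1% of all genes, the P2 library 8 of 9 against 23.3% and the adult library 7 of 7 against 25.6%. Without cells that held a marker of another cell type, 4 of 7 were past 2-fold in the adult, and Fabp5, Pparg and Thrsp were not. That restriction left 21 endocardial cells, and the share of all genes under it is not given. Before it, Pparg and Thrsp had only 2 and 12 adult endocardial UMIs, so whether their differences were lost was not settled. The median ratio over the judged members was 0.873, 10.5, 6.27 and 7.77 from E12 to the adult, beside 0.931, 0.934, 0.929 and 0.985 over all genes.

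Over the 4 libraries, 6 members were higher and 1 was lower in coronary cells in a test that paired the classes within each library. For Lpl and Thrsp the coronary level stood higher at P2 and in the adult only. The ratio of Lpl was 0.873 at E12 and 1.01 at E15. Thrsp had no UMI in either class at E12, and 1 coronary and 4 endocardial UMIs at E15. The test was edgeR's quasi-likelihood test with the library as a block and p-values adjusted over 10651 genes (Benjamini-Hochberg), of which 16.9% had an adjusted p under 0.05. Coronary cells differed by 3.96 ± 0.27 (log2, SE) for Fabp4 (adjusted p = 0.00017), by 3.33 ± 0.18 for Cd36 (9.0e-05) and by 3.98 ± 0.33 for Gpihbp1 (0.00036) in edgeR's test. The test gives no SE, so it was derived as the size of the log2 difference over the square root of the F value. The log2 difference was 1.61 ± 0.42 for Lpl (0.036), 3.07 ± 0.41 for Pparg (0.0024), 2.69 ± 0.43 for Thrsp (0.0070) and -1.18 ± 0.11 for Fabp5 (0.00055). Slc27a1 missed the threshold, at -1.85 ± 0.54 (adjusted p = 0.051), and Dgat2 had too few UMIs for the edgeR fit. The libraries are of different stages, so the spread behind this test includes that of the difference between stages. Without the P2 library 4 of 7 fitted members passed, beside 4.23% of 9457 genes. The adjusted p in edgeR's test was then 0.30 for Lpl, 0.055 for Pparg and 0.072 for Thrsp. Without the adult library the adjusted p of Lpl in edgeR's test was 0.094. Thrsp could not be fitted without the adult library. Without cells that held markers of other types Thrsp missed the threshold in edgeR's test, at 1.14 (adjusted p = 0.10). In DESeq2's test, used as an alternative, Lpl missed it (adjusted p = 0.069).

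Lpl, the lipase itself, was found in coronary cells at 17.2 [6.32–37.5], 23.8 [14.3–37.1], 302 [294–311] and 582 [560–604] CPM, with the stages in order of age here and in what follows. In endocardial cells it was at 19.7 [13.5–27.8], 23.5 [17.3–31.2], 70.8 [64.4–77.6] and 102 [72.6–140] CPM. The classes thus overlapped in the embryo, with ratios of 0.873 [0.298–2.12] at E12 and 1.01 [0.561–1.75] at E15, and stood apart at P2 and in the adult, where coronary cells were 4.27-fold [3.88–4.71] and 5.70-fold [4.16–8.03] higher. At E12 both values were below the 35.6 CPM of the empty droplets.

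Gpihbp1, the anchor of the lipase, was at 17.2 [6.32–37.5], 470 [424–520], 1537 [1518–1555] and 2407 [2364–2451] CPM in coronary cells and at 5.55 [2.54–10.5], 41.2 [32.8–51.0], 65.3 [59.2–71.9] and 141 [106–184] CPM in endocardial cells. The coronary level exceeded the endocardial one 11.4-fold [8.99–14.6] at E15, and the P2 and adult libraries gave 23.5-fold [21.4–26.0] and 17.0-fold [13.0–22.7]. At E12 only 15 UMIs were counted over both classes, too few for a ratio. Gpihbp1 differed more than Lpl did between the classes at each of the 3 later stages, and already stood apart at E15, when Lpl did not.

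The scavenger receptor Cd36 was at 25.8 [11.8–49.0], 405 (324 UMIs), 2090 [2069–2112] and 3505 [3452–3558] CPM in coronary cells. Endocardial cells held it at 4.31 [1.73–8.89], 38.7 [30.7–48.3], 176 [166–187] and 469 [403–543] CPM. Coronary cells were 10.5-fold [8.16–13.6], 11.9-fold [11.2–12.6] and 7.48-fold [6.45–8.71] higher from E15 on, where the intervals of the classes did not overlap. At E12 only 16 UMIs were counted over both classes, too few for a ratio, and both levels were below the 108 CPM of the empty droplets. The acyl-CoA synthetase and transporter Slc27a1 stayed low throughout, at 0, 2.50, 1.80 and 1.04 CPM in coronary cells (0, 2, 31 and 5 UMIs) and at 5.55, 3.92, 5.77 and 10.5 CPM in endocardial cells. The 0 at E12 allows up to 8.61 CPM. Slc27a1 could be judged at P2, where coronary cells were lower, at 0.312 [0.187–0.517] of the endocardial level.

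Fabp4 and Fabp5, neighbouring genes that encode related binding proteins, divided the lineages in opposite directions. Fabp4 was at 255 [205–314], 4771 [4620–4924], 16446 [16385–16506] and 22406 [22272–22540] CPM in coronary cells and at 14.2 [8.99–21.3], 183 [165–203], 1216 [1189–1243] and 2883 [2715–3058] CPM in endocardial cells. The ratios were 18.0 [11.3–29.9], 26.0 [23.4–29.0], 13.5 [13.2–13.8] and 7.77 [7.32–8.26]. Fabp5 was at 1010 [907–1121], 2532 [2423–2645], 1610 [1591–1629] and 1031 [1003–1060] CPM in coronary cells. In endocardial cells it was at 2277 [2204–2352], 5237 [5138–5337], 4623 [4570–4676] and 2584 [2425–2751] CPM, which put coronary cells at 0.443 [0.396–0.495], 0.484 [0.461–0.507], 0.348 [0.343–0.354] and 0.399 [0.373–0.428] of the endocardial level.

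Of the UMIs of both genes together, Fabp4 made up 20.2%, 65.3%, 91.1% and 95.6% in coronary cells, from E12 to the adult. In endocardial cells its part was 0.619%, 3.38%, 20.8% and 52.7%. In coronary cells fewer UMIs of Fabp4 than of Fabp5 were thus counted at E12 and more at E15. The adult interval of the Fabp4 part in endocardial cells was 50.6% to 54.9% (exact binomial). The adult endocardial value changed with the cells kept. In the 21 adult endocardial cells without markers of other cell types it was 91.0% [87.1–94.0], and in the 66 with fewer than 3 immediate-early UMIs 65.2% [61.9–68.4], whereas at P2 the endocardial part was 22.3% and 22.0% under these restrictions. A UMI marks the 3′ end of a transcript and does not scale with transcript length, but the genes may be captured with unlike efficiency, so the parts compare groups rather than the genes.

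**Figure D2:**
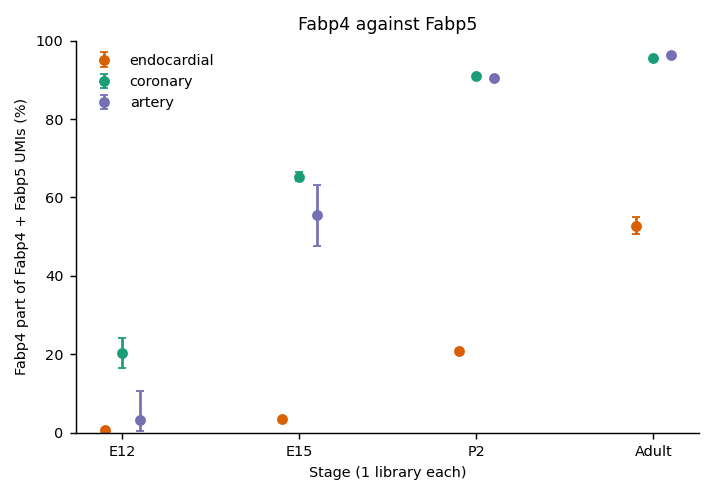
Part of Fabp4 in the UMIs of Fabp4 and Fabp5 together (vertical axis, percent) at the 4 stages (horizontal axis) in endocardial, coronary and artery-rule cells, with exact binomial intervals for counting error. Coronary cells reach 65.3% at E15, and endocardial cells reach 52.7% in the adult, where the 21 cells without markers of other cell types, not drawn, gave 91.0%.

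Pparg was at 5.74, 17.5, 37.8 and 61.7 CPM in coronary cells (2, 14, 651 and 297 UMIs) and at 4.93, 1.96, 3.59 and 5.24 CPM in endocardial cells (8, 4, 23 and 2 UMIs). P2 coronary cells were 10.5-fold [6.96–16.7] and adult ones 11.8-fold [3.24–97.8] higher, the latter resting on 2 endocardial UMIs. Thrsp was not found in coronary or endocardial cells at E12, which allows up to 8.61 and 1.85 CPM, and was at 1.25, 5.86 and 265 [251–280] CPM in coronary cells at the later stages. Endocardial cells held it at 1.96, 0.936 and 31.4 [16.2–54.9] CPM, so the coronary level was 6.27-fold [2.78–17.5] and 8.44-fold [4.82–16.4] higher in the P2 and adult libraries. Dgat2 was the least detected member, with highest observed values of 0.755 CPM in coronary and 2.62 CPM in endocardial cells. No Dgat2 UMI was found in coronary cells at E12 or E15, and at E12 this allows up to 8.61 CPM. The interval of the Dgat2 ratio at P2, 0.605 [0.232–1.68], covered 1.

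**Figure D3:**
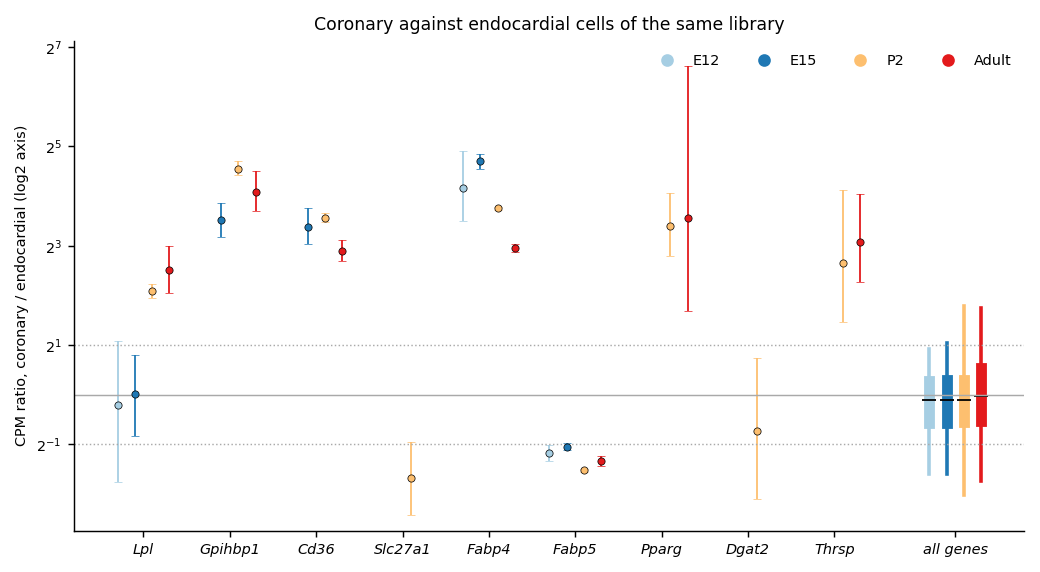
Ratio of CPM in coronary to endocardial cells of the same library (vertical axis, log2 scale) for each gene with at least 20 UMIs over both classes, coloured by stage, with exact conditional binomial intervals. Bars at the right show all judged genes (thick, middle 50%; thin, middle 90%; black dash, median). Gpihbp1, Cd36 and Fabp4 lie above the dotted 2-fold line from E15 on, and Fabp5 lies below the lower one at every stage.

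The adult endocardial class held only 138 cells, with mural and fibroblast markers at 3090 CPM against 422 CPM in coronary cells. Without cells that held any marker of another cell type, 21 adult endocardial cells were left, and the adult ratios were 2.72 for Fabp4, 2.90 for Cd36, 6.44 for Gpihbp1, 2.60 for Lpl, 1.84 for Pparg and 1.70 for Thrsp. That of Fabp5 went from 0.399 to 1.23, a value that rested on 26 endocardial UMIs and is given without an interval. Those of Pparg and Thrsp rested on no more than the 2 and 12 endocardial UMIs counted with all cells kept. At P2 the same restriction gave 13.0 for Fabp4, 10.0 for Cd36, 18.8 for Gpihbp1, 4.96 for Lpl and 0.361 for Fabp5, but 2.05 for Thrsp. Without cells of at least 3 immediate-early UMIs the adult ratios were 6.04 for Fabp4, 5.89 for Cd36, 11.9 for Gpihbp1, 5.14 for Lpl, 6.06 for Thrsp and 0.485 for Fabp5. The ratio of Pparg was then 4.98 in the adult and 24.1 at P2. This restriction left 66 endocardial cells in the adult and 146 at P2. With all cells kept Pparg had only 2 and 23 endocardial UMIs there, so both of its values rest on few UMIs and are given without an interval.

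Single cells showed the same order of the classes. With every cell thinned to 500 UMIs, Fabp4 was found in 7.25%, 72.4%, 93.1% and 98.4% of coronary cells and in 0.362%, 5.29%, 28.6% and 50% of endocardial cells, after 2, 27, 0 and 0 coronary and 12, 62, 0 and 0 endocardial cells too shallow for this were left out. Cd36 was found in 1.04%, 15.7%, 57.8% and 77.9% of coronary cells and Gpihbp1 in 1.04%, 20.8%, 51.3% and 64.9%. Fabp5 was found in 58.6%, 84.0%, 81.8% and 52.9% of endocardial cells, and in 30.6%, 59.8%, 47.7% and 36.0% of coronary cells. In the haemoglobin-rich E12 barcodes, which should lack these genes, Fabp4 was in 0 of 31, which allows a share of up to 9.68%, and Fabp5 in 3.23%. Their median depth was 1817 UMIs, beside 1525 for E12 coronary cells. Before thinning, the median coronary cell held Fabp4 at 0, 4508, 17007 and 22794 CPM, and the median endocardial cell at 0, 0, 424 and 989 CPM. Few cells carried the Fabp4 of the embryonic endocardial class. At E12, 91.3% of its 23 UMIs were in the 12 highest cells, and 1 cell held 10 of them, while at E15 41.7% were in the 17 highest cells.

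From E12 to E15, coronary cells of the later library held more Fabp4, Cd36, Gpihbp1 and Fabp5. From E15 to P2 they held more Lpl, Cd36, Fabp4 and Gpihbp1 and less Fabp5. Between P2 and the adult Thrsp alone of the 8 judged members was past 2-fold. At E15 against E12, 4 of 5 judged members were past 2-fold in coronary cells, beside 12.5% of all genes. Gpihbp1 was 27.3-fold [12.4–74.9], Fabp4 18.7-fold [15.1–23.3] and Cd36 15.7-fold [8.17–34.6] higher at E15, whereas Lpl differed by 1.38-fold [0.530–4.22]. The E12 empty droplets held Fabp4, Cd36 and Gpihbp1 above the level of E12 coronary cells, and the part of free RNA in the E12 values was not tested. Without E12 barcodes that were cells of another library, these ratios were 26.5 for Gpihbp1, 19.0 for Fabp4 and 17.1 for Cd36.

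At P2 against E15, 6 of 8 judged members were past 2-fold and all 6 were higher, beside 22.9% of all genes either way and 16% higher. Lpl was 12.7-fold [8.14–21.1], Cd36 5.16-fold [4.62–5.77], Fabp4 3.45-fold [3.34–3.56] and Gpihbp1 3.27-fold [2.95–3.63] higher at P2. Thrsp was at 1 UMI in E15 coronary cells, so that its ratio of 4.69 carried an interval of 0.823 to 187. For Pparg the ratio of 2.16 [1.28–3.97] dropped to between 1.65 and 1.96 under 6 of the other settings. Fabp5 went the other way, to 0.636 [0.608–0.666] of its E15 level.

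In the adult against P2, 1 of 8 judged members was past 2-fold, beside 23.6% of all genes. Dgat2, with 13 UMIs at P2 and 1 in the adult, could not be judged. The member past 2-fold was Thrsp, 45.2-fold [36.9–56.0] higher, with 1276 UMIs over 2530 adult and 101 UMIs over 3460 P2 coronary cells. Thinned to 500 UMIs, 12.3% of adult and 0.231% of P2 coronary cells held it. Without cells of at least 3 immediate-early UMIs the ratio was 157. Only 190 P2 coronary cells were then left, so this value rests on very few P2 Thrsp UMIs and is given without an interval. Without cells holding a marker of another cell type the ratio was 44.3. Lpl was 1.93-fold [1.84–2.02], Cd36 1.68-fold [1.65–1.71], Pparg 1.63-fold [1.42–1.88], Gpihbp1 1.57-fold [1.53–1.60] and Fabp4 1.36-fold [1.35–1.37] higher in the adult, and Fabp5 was at 0.641 [0.621–0.660] of its P2 level.

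Across the whole span, from E12 to the adult, 6 of 7 judged members were past 2-fold in coronary cells and all were higher, beside 41.6% of all genes either way and 27.6% higher. The adult level was 140-fold [64.2–381] that of E12 for Gpihbp1, 136-fold [71.5–297] for Cd36, 87.8-fold [71.3–109] for Fabp4, 33.8-fold [15.5–92.2] for Lpl and 10.8-fold [2.95–89.3] for Pparg. Thrsp was at least 30.8-fold higher, against the level of 3 UMIs over the E12 coronary cells. Fabp5 stood at 1.02 [0.917–1.14] of its E12 level, after the higher value at E15. Without cells of at least 3 immediate-early UMIs the ratios were 218 for Gpihbp1, 168 for Cd36, 106 for Fabp4, 48.7 for Lpl and 17.7 for Pparg. The bound for Thrsp was then at least 21.6-fold, and at least 18.7-fold without cells that held markers of other cell types, both against fewer E12 cells.

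**Figure D4:**
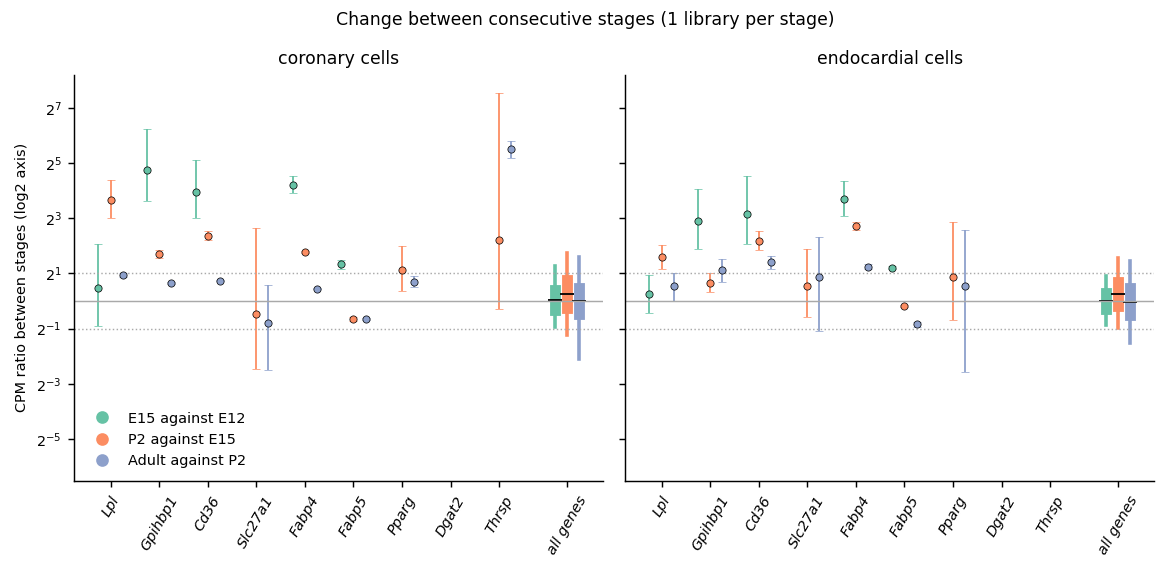
Ratio of CPM between successive stages (vertical axis, log2 scale) for each gene, in coronary and in endocardial cells, with exact conditional binomial intervals. Bars at the right show all judged genes. In coronary cells the adult to P2 ratio of Thrsp, 45.2, stands above those of the other judged genes, which lie between 0.578 and 1.93.

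Endocardial cells of the later libraries also held more Fabp4 and Cd36 at each step, at levels below those of coronary cells. The E15, P2 and adult files held called cells only, so no empty droplets could be set beside these levels. The part of free RNA in them was not tested. With all cells kept, endocardial Fabp5 was above the coronary level at each stage. In the adult it was at 831 against 1022 CPM without cells that held markers of other cell types. The 831 CPM rested on 26 UMIs in 21 cells, so the order of the classes was not settled there. At E15 against E12, 4 of 5 judged members were past 2-fold, beside 7.48% of all genes, with Fabp4 12.9-fold [8.49–20.7], Cd36 8.98-fold [4.16–23.1], Gpihbp1 7.42-fold [3.73–16.8] and Fabp5 2.30-fold [2.22–2.39] higher. At P2 against E15 it was 3 of 7, beside 19.1%, namely Fabp4 (6.63-fold), Cd36 (4.55-fold) and Lpl (3.01-fold). In the adult against P2 it was 3 of 7, beside 20.8%, namely Cd36 (2.66-fold), Fabp4 (2.37-fold) and Gpihbp1 (2.16-fold), while Thrsp had too few UMIs to be judged. Over the whole span 4 of 5 were past 2-fold, beside 37.7%, with Fabp4 203-fold [135–322] and Cd36 109-fold [51.7–274] higher in the adult and Fabp5 at 1.13 [1.06–1.22]. These adult values rest on the 138 endocardial cells described above. Without cells that held markers of other cell types, the adult level against E12 was 449-fold for Fabp4, 300-fold for Cd36 and 0.319 for Fabp5. Against P2 it was then 6.22-fold for Fabp4, 5.67-fold for Cd36, 4.41-fold for Gpihbp1, 3.61-fold for Lpl and 0.177 for Fabp5. Both of these Fabp5 ratios rest on the same 26 adult UMIs. With at least 2 class marker UMIs the adult to P2 ratio was 1.94 for Fabp4 and 1.64 for Gpihbp1. The adult level of Fabp4 in endocardial cells, 2883 CPM, was below the 4771 CPM of E15 coronary cells. Without cells that held markers of other cell types this order turned. The 21 adult endocardial cells then held Fabp4 at 8409 CPM and the E15 coronary cells at 5278 CPM.

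Cells passing the artery rule held less Fabp4 and Fabp5 than coronary cells outside that class, by amounts that changed with the cells kept. For Fabp5 at E12 the direction changed as well. Of the cells passing the rule, only 4 of 75 at E12 and 10 of 28 at E15 held no marker of another cell type. All cells passing the rule held Fabp4 at 12.5, 1920, 12647 and 20503 CPM, from E12 to the adult. Against coronary cells outside the artery class the ratio was 0.40 [0.322–0.492] at E15 and then 0.751 [0.744–0.758] and 0.860 [0.851–0.869]. At E12 it was 0.0486 [0.00579–0.181] and rested on 2 UMIs. The ratio of Fabp5 was 0.388 [0.292–0.509], 0.604 [0.472–0.762], 0.771 [0.748–0.794] and 0.648 [0.615–0.682]. For Lpl the P2 and adult ratios were 0.492 [0.452–0.535] and 0.746 [0.696–0.799], and for Gpihbp1 0.608 [0.587–0.629] and 0.859 [0.831–0.889]. Cd36 was near level, at 1.04 [1.01–1.07] and 1.09 [1.06–1.12], as was Pparg, at 0.989 [0.817–1.19] and 0.951 [0.771–1.18]. Past 2-fold were 2 of 2, 1 of 5, 1 of 8 and 0 of 7 judged members, beside 20.2%, 20.7%, 8.78% and 6.23% of all genes. Beside these values, macrophage markers were at 396 CPM in the adult artery-rule cells and at 15.4 CPM in coronary cells, and leaving out cells with markers of other types gave 0.863 for Fabp4 and 0.725 for Lpl in the adult and 0.528 for Fabp4 at E15. With at least 2 endothelial UMIs the Fabp5 ratio at E12 turned to 1.16. Without cells of at least 3 immediate-early UMIs, 18 P2 cells were left in the artery class, and the ratios fell to 0.395 for Fabp4, 0.343 for Fabp5, 0.348 for Gpihbp1 and 0.0582 for Lpl. At E15 the same restriction gave 0.656 for Fabp4 and 0.794 for Fabp5, so that E15 lay nearer to 1 than P2 there.

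Within the vessels of the postnatal heart, 6 of the 7 better detected members were higher in mature capillaries than in any of the other finer groups described here, and Fabp5 was not. The share of all genes with this ranking is not given, so whether it is particular to these members was not tested. Mature capillary cells, coronary cells with Timp4 or Car4 and neither Apln nor Kcne3, held Fabp4 at 22134 CPM at P2 and 26056 CPM in the adult, Cd36 at 3109 and 3837 CPM, Gpihbp1 at 1975 and 2813 CPM, and Lpl at 462 and 738 CPM. Angiogenic capillary cells, with Apln or Kcne3 and neither of the others, held Lpl at 205 and 259 CPM. Mature cells thus held 2.25-fold [2.06–2.46] and 2.85-fold [2.11–3.95] more Lpl. For Cd36 the ratio was 2.34 [2.27–2.43] and 1.93 [1.73–2.16], for Fabp4 1.61 [1.59–1.62] and 1.98 [1.89–2.06], and for Thrsp 5.26 [2.28–14.9] and 3.11 [1.90–5.47]. Of all judged genes, 3.17% were 2-fold or more higher in mature cells at P2 and 8.91% in the adult. Fabp5 differed, at 0.744 [0.721–0.768] and 1.09 [0.935–1.27].

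Vein cells (coronary cells with at least 3 UMIs of Prss23, Vwf and Ptn together) and large artery cells (endothelial cells with at least 3 of Fbln5, Gkn3 and Eln) stood below mature capillaries. At P2 vein cells held Fabp4 at 0.188 [0.183–0.193], Cd36 at 0.151 [0.140–0.164], Gpihbp1 at 0.185 [0.169–0.203] and Lpl at 0.275 [0.234–0.320] of the mature capillary level, with 6.39% of all judged genes as much as 2-fold lower. In the adult, with 31 vein cells, the ratios were 0.60 for Fabp4, 0.745 for Cd36, 0.345 for Gpihbp1 and 0.291 for Lpl, beside 6.99%. The large artery rule did not leave out endocardial or valve cells. It took in 1421 cells at P2, beside 711 that passed the artery rule, so the group may be mixed. Whether its cells came from large arteries was not tested. Large artery cells held Fabp4 at 0.133, Cd36 at 0.142, Gpihbp1 at 0.0965 and Lpl at 0.166 of the mature capillary level at P2, and at 0.342, 0.553, 0.199 and 0.150 in the adult. Fabp5 in large artery cells was 2.06-fold [2.01–2.11] higher than in mature capillaries at P2 and lower, at 0.352 [0.312–0.397], in the adult. Lymphatic cells, with at least 3 UMIs of Prox1, Mmrn1, Ccl21a and Lyve1, held Fabp4, Cd36 and Gpihbp1 at 0.0902, 0.0835 and 0.127 of the mature capillary level at P2. Cells in both groups of a pair were left out of its ratio.

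Valve markers (at least 2 UMIs of Cldn11, Enpp2, Pthlh and Wnt4) were found in 554 endothelial cells at P2, of which 240 were endocardial and 274 held Cldn5 or Aplnr. So that both sides met the same rule, the 240 were set against the 1083 endocardial cells without these markers. They held Fabp5 at 0.727 [0.705–0.750], Cd36 at 0.629 [0.531–0.742], Gpihbp1 at 0.584 [0.434–0.772], Lpl at 0.765 [0.593–0.978] and Fabp4 at 0.911 [0.861–0.963] of the level in the others, so no member moved as much as 2-fold, beside 3.58% of all judged genes that were 2-fold or more lower. At E15, with 26 such cells, Fabp5 was at 0.926 [0.805–1.06], and at E12 and in the adult there were 9 and 10, too few for a value. Dividing coronary cells at P2, with at least 2 UMIs of Mki67, Top2a, Birc5 and Ube2c, held Fabp5 at 1.28 [1.25–1.31] and Cd36 at 0.799 [0.780–0.819] of the level in the other coronary cells. Coronary cells with interferon-response transcripts were near level with the rest in the adult, between 0.952 for Fabp4 and 1.12 for Thrsp.

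**Figure D5:**
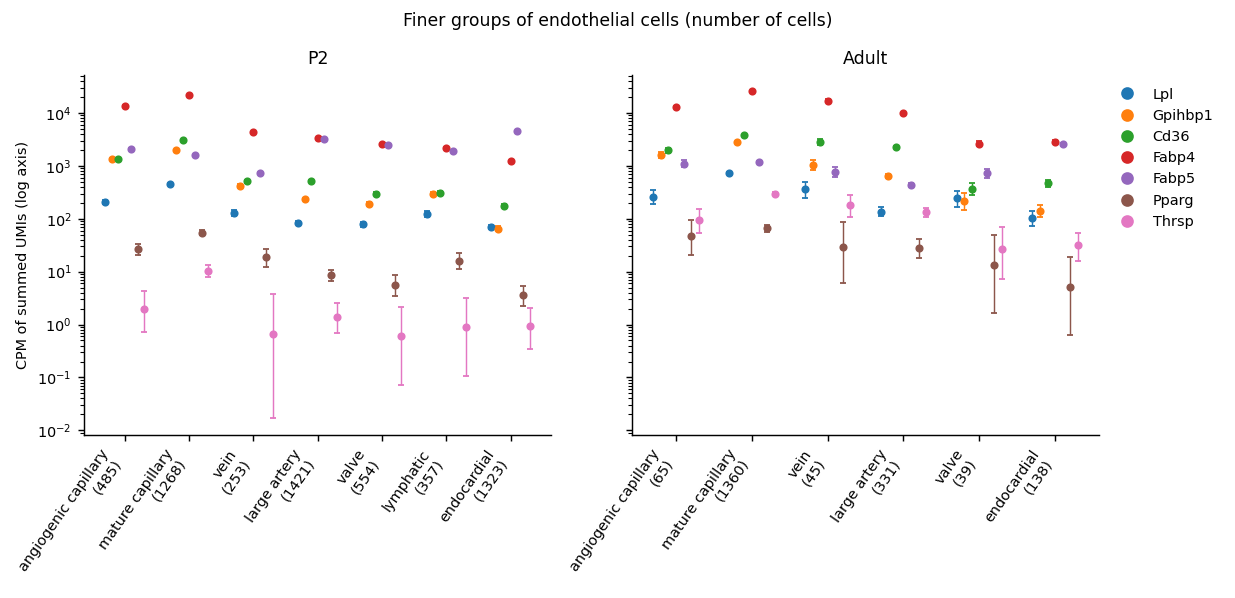
Level in CPM (vertical axis, log scale) of the better detected genes in finer groups of endothelial cells at P2 and in the adult (horizontal axis, number of cells in brackets), with exact Poisson intervals. Fabp4 is highest in mature capillary cells, at 22134 CPM at P2 and 26056 CPM in the adult.

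Coronary cells that held Cd36 more often held Gpihbp1 and Lpl as well. Of 33 pairs of members that could be counted at P2 and 25 in the adult, coronary cells with one transcript more often held the other in 21 and 20, and the exact intervals stood apart in 14 and 9 of these, against 0 in the other direction. Pairs such as Fabp5 with Pparg in the adult (5.57% of cells with Fabp5 and 6.07% without) were near level. Pairs of other genes were not counted, so whether this pattern is particular to these genes was not tested. The exact intervals cover counting error among cells of the same library and no variation between animals. In P2 coronary cells thinned to 1000 UMIs (3460 cells), Gpihbp1 was found in 77.3% of cells with Cd36 and 48.6% of cells without it, and Lpl in 29.5% and 14.0%. In 2071 adult coronary cells, after 459 shallower ones were left out, Gpihbp1 was found in 82.4% of cells with Cd36 and 58.5% of those without, Lpl in 40.3% and 21.6%, and Thrsp in 23.0% and 10.8%. Adult cells with Thrsp (454) and without it (1617) held Lpl in 43.8% [39.2–48.5] and 37.3% [34.9–39.7]. These shares pool capillary, vein and artery cells, among which the levels differed as given above.

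Over the 12 groups of 4 stages and 3 classes, log2(CPM + 20) of Fabp4 went with that of Cd36 (Pearson r = 0.98) and Gpihbp1 (0.96), and Cd36 with Gpihbp1 (0.97). Lpl went with Pparg (0.89), Cd36 (0.89) and Thrsp (0.83). Fabp5 stood apart, at -0.02 with Fabp4, -0.12 with Cd36 and -0.40 with Pparg. The points share libraries and some cells, so these values only describe the patterns. Among 5173 candidates the genes most alike in pattern were Tcf4 (0.98), Ehd2 (0.97) and Cav1 (0.97) for Fabp4. For Cd36 they were Fam181b, Vsir and Wasf2 (each 0.98), for Gpihbp1 Apbb2, Wasf2 and Sparcl1 (each 0.98), and for Fabp5 Ramp2, Pigx and Lyl1 (0.92, 0.92 and 0.91). Lpl was most like Tspan7, Usp18 and Cd300lg (each 0.98), Pparg like Ablim3 (0.98), Sema7a (0.98) and 2610305D13Rik (0.97), and Thrsp like Apol10b (0.996), Xdh (0.992) and AW112010 (0.988). The levels of Slc27a1 and Dgat2 never reached the 50 CPM set for this comparison.

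Other genes of the pathway were counted in 6 lists of 99 genes in all. In coronary cells of the adult against E12, where 27.6% of all genes were 2-fold or more higher, 14% as much lower and the median ratio of all genes was 1.23, uptake and transport genes had 6 of 14 judged genes higher and 2 lower, with a median ratio of 1.56. Caveolin 1 (Cav1), which shapes membrane pits, was at 221 and 1931 CPM at E12 and in the adult (8.74-fold [6.99–11.1]), and the lipoprotein receptor gene Scarb1 at 22.9 and 157 CPM (6.85-fold [3.46–15.9]). Cavin1, listed in the files as Ptrf, was 4.72-fold [3.52–6.48] higher. Acsl3, a fatty acyl-CoA synthetase, was lower, at 0.248 [0.104–0.683] of its E12 level, and the receptor gene Lrp1 was at 0.483 [0.143–2.54].

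Of genes that handle lipoprotein lipase, 3 of 6 judged were higher and 0 lower, with a median ratio of 2.1, including its inhibitor Angptl4 (5.82-fold [1.97–28.4]), Sel1l (2.36-fold [1.06–6.50]) and Lmf1 (2.36-fold [0.626–19.9]). Among regulators 5 of 14 were higher and 2 lower (median 1.54). Meox2, a transcription factor of heart capillaries, was not found at E12 and stood at 181 CPM in the adult, at least 21.1-fold higher. The receptors Nrp1 and Flt1 were 4.96-fold [3.95–6.32] and 4.11-fold [3.15–5.45] higher, whereas their ligand Vegfb was at 0.155 [0.0596–0.450] and Esrra at 0.346 [0.166–0.808]. Meox2 and Tcf15 were also among the capillary markers used above.

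Triglyceride storage and release had 7 of 13 higher and 0 lower (median 3.34). Here the lipase genes Mgll (5.74 and 767 CPM, 134-fold [37.0–1105] on 2 E12 UMIs) and Lipe (18.4-fold [5.08–153]) and the synthase gene Dgat1 (5.51-fold [0.959–220] on 1 E12 UMI) led. Beta-oxidation had 9 of 17 higher and 0 lower (median 2.16), led by Acadm (19.0-fold [3.38–753]), Acadvl (7.78-fold [2.64–37.9]) and Acaa2 (6.42-fold [2.73–19.9]). Fatty acid synthesis had 2 of 9 higher and 3 lower (median 1.15). The desaturase gene Scd2 was at 0.0838 [0.0567–0.124], the fatty acid synthase gene Fasn at 0.0886 [0.0334–0.242] and Acaca at 0.453 [0.156–1.79] of the E12 level, while Acly and Elovl5 were 3.25-fold [1.95–5.83] and 2.54-fold [1.61–4.24] higher.

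Between P2 and the adult these lists moved less evenly, where 10.5% of all genes were 2-fold or more higher in coronary cells, 13.1% as much lower and their median ratio was 1.01. No beta-oxidation gene was past 2-fold among 17 judged (median 0.855). Storage and release had 3 of 13 higher, namely Lipe (3.20-fold [2.83–3.61]), Pnpla2 (2.50-fold [2.22–2.81]) and Mgll (2.15-fold [2.06–2.24]). Synthesis had 2 of 12 higher, Scd1 (7.81-fold [3.68–17.7]) and Acacb (7.55-fold [5.04–11.5]), and 4 lower, among them Fads2, Me1 and Elovl6 at 0.217, 0.279 and 0.458. Regulators had 5 of 16 higher, with Klf15 (5.01-fold [2.07–12.6]), Nr1h3 (4.58-fold [2.36–9.0]) and Flt1 (2.89-fold [2.75–3.03]) first, and 3 lower, Cebpb, Vegfb and Ppargc1b. Of the lipase handlers Angptl4 alone of 6 was past 2-fold, at 0.211 [0.184–0.240] of its P2 level, and of 15 uptake genes Lrp1 was higher and Vldlr lower.

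Against endocardial cells of the adult, where 13.4% of all genes were 2-fold or more higher, 12.2% as much lower and their median ratio was 0.985, coronary cells had 8 of 14 uptake and transport genes higher and 1 lower (median 2.25). Scarb1 was 4.62-fold [2.68–8.71] higher, and the ratio of Acsl1 (7.86 [1.38–314]) rested on 1 endocardial UMI. Regulators had 5 of 14 higher, led by Meox2 (17.3-fold [6.74–63.7]), Tcf15 (12.6-fold [7.38–23.8]) and Rxra (2.57-fold [0.853–12.7]), and 3 lower, Klf15, Nr1h3 and Srebf1. Storage and release had 4 of 13 higher, led by Mgll (6.51-fold [4.86–8.94]) and Lipe (3.67-fold [2.04–7.41]), and 2 lower, with the lipase inhibitor G0s2 at 0.0513 [0.0316–0.0822] of the endocardial level. In the synthesis list 3 of 8 were higher (Fads1, Acly and Acacb) and Scd2 lower, and among the lipase handlers Angptl4 was higher and Sdc4 lower. Of 17 beta-oxidation genes 0 were higher and Echs1 was lower.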

How the data were processed

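RNA of sorted CD31+/CD45− heart cells was measured in 4 single-cell libraries (10x Genomics v2, 3′ ends), 1 per stage. The authors mapped the reads with Cell Ranger 2.2 to mm10 and deposited raw UMI counts, integers that were not normalized, for each gene and barcode. The E15, P2 and adult files held called cells, whereas the E12 file held 737280 barcodes, of which 5732 passed a fixed minimum number of UMIs.

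Counts were summed per stage and class with Python 3.11.15, numpy 2.4.6, scipy 1.17.1 and pandas 2.3.3, and divided by the UMIs of the group. Sums have exact Poisson, ratios exact conditional binomial and shares exact Clopper-Pearson intervals, at 95%. With 1 library per stage no p-value was computed between stages, and no doublets were called. Coronary and endocardial sums, paired within the 4 libraries, were tested with edgeR's quasi-likelihood test (TMM scaling, edgeR's filter on low counts, library as a block), with DESeq2 1.42.0 as an alternative, a test added after the data were seen. A level of 0 was given the limit of 3 counts. The ratios and this test were tested on simulated data. Scaling by trimmed means used edgeR 4.0.16 in R 4.3.3, and 12 alternatives were tried.

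The 9 genes, the classes and the pathway lists were chosen with earlier results of these data known. Named from each list were up to 3 genes with the highest and 3 with the lowest ratio among those past 2-fold, in coronary cells of the adult against E12 and P2 and against adult endocardial cells, and for each member the 3 genes of most similar pattern. Finer groups under 20 cells were given no value.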

Additional observations from a re-analysis of the deposited data

Results flagged for a closer look

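The E12 library is the only one whose file holds barcodes outside the called cells. These entered none of the ratios above, although some of their levels were set beside those of E12 cells. The 156821 E12 barcodes of 1 to 100 UMIs held 8 of the 9 genes above the level that a count of 3 allows. The share of all genes above that level is not given, so the count describes these members only. Fabp4 was at 586 CPM there, beside 255 CPM in E12 coronary, 14.2 CPM in endocardial and 51.5 CPM in all endothelial cells. Fabp5 was at 1511 CPM, beside 1730 CPM in all endothelial cells. For Cd36 and Gpihbp1 the values were 108 and 98.6 CPM, beside 10.3 and 8.29 CPM in endothelial cells. Lpl was at 35.6 CPM beside 15.1, and Slc27a1 at 16.4 CPM beside 5.03. Pparg and Dgat2 rested on 5 and 4 UMIs, at 6.85 and 5.48 CPM. Thrsp, with 2 UMIs, was not above that level.

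On the E12 barcodes that were cell barcodes of E15, 101643 UMIs were counted, 13.9% of the UMIs in these low barcodes, and Fabp4 had 166 of its 428 UMIs there. On low barcodes that belonged to no cell of the other libraries Fabp4 was at 418, Cd36 at 110 and Gpihbp1 at 82.3 CPM. Among called E12 cells 110 shared a barcode with a cell of another library and held 7 Fabp4 UMIs. The part of these barcodes in the E12 levels was not tested beyond the values without them.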

How the results depend on the processing

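The counts of the 9 genes past 2-fold were recomputed under 12 other settings, and under 1 more, without E12 barcodes that were cells of another library, chosen after seeing the data. Of 188 such counts 162 stayed within 1.5 times the reported one. The share of all genes past 2-fold is not given for these settings, so the counts describe the members only. Of 585 ratios past 2-fold as reported, recomputed under these settings, 570 stayed past it. The count for coronary against endocardial cells was 4 to 5 genes at E15 and 6 to 8 at P2, and that for the stages of coronary cells 4 to 5 (E15 against E12), 4 to 7 (P2 against E15) and 5 to 6 (adult against E12). Thinning to 500 UMIs, which leaves fewer genes with 20 UMIs, gave 1 in place of 2 for the classes at E12, 0 in place of 2, 2 in place of 1 and 3 in place of 1 for the artery class at E12, E15 and P2, and 2 in place of 4 for endocardial E15 and adult cells against E12. Without cells holding a marker of another cell type the adult classes differed in 4 genes in place of 7, the artery class in 1 at E12 and 2 at P2, and adult against P2 endocardial cells in 5 in place of 3. Without cells of 3 immediate-early UMIs, which left 436 of 5884 P2 cells, the artery class differed in 0 genes at E15 and 5 at P2, and adult against P2 coronary cells in 2 (Lpl at 2.37 joined Thrsp). At least 2 class marker UMIs gave 3 for the artery class at E15, 5 for endocardial P2 against E15 and 1 for adult against P2. At least 2 endothelial UMIs gave 1 for the artery class at E12. The limits of the study, mean CPM of single cells and trimmed-mean (TMM) scaling each gave 3 for the artery class at E15. With at least 5 UMIs per gene the counts were 4 for both E12 comparisons, 2 and 1 for the artery class at P2 and in the adult, 2 for adult against P2 coronary cells and 5 for endocardial ones. The artery results at E12 and E15 thus depended on most of these choices. The ratio of Fabp5 passed to the other side of 1 in the adult classes without cells of other types (1.23, on 26 endocardial UMIs). It did so too in the artery class at E12 with at least 2 endothelial UMIs (1.16). TMM scaling moved all genes by over 0.1 on the log2 scale in some comparisons, by 0.46 for the artery class at E15, 0.30 for endocardial adult against E12 and -0.15 for the classes at P2 and in the adult. The cause of these changes was not tested. No paired analysis was possible because the stages share 1 replicate number, but the classes were paired within each library. That test and its alternatives were chosen after seeing the data. As reported it called 7 of 8 fitted members and 1799 of 10651 genes. With no replicate block it called 1 of 6 members and 184 of 9577 genes, and with DESeq2 6 of 9 and 1556 of 18037. The counts were 8 of 9 and 2828 of 18037 with no filter on low counts. Without cells of 3 immediate-early UMIs they were 7 of 7 and 884 of 7472. Leaving out each library in turn gave 4 to 7 members and 400 to 2067 genes (4.23% to 18.2% of those fitted), fewest without P2. With 195 coronary cells at E12, a count of 0 allowed up to 8.61 CPM there.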

Other observations

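Endothelial cells with neither marker pair numbered 1387, 1870, 306 and 1402 from E12 to the adult, and they were in neither class. They held Fabp4 at 44.3, 1669, 7420 and 19594 CPM, Fabp5 at 1399, 3698, 2641 and 834 CPM, Cd36 at 12.9, 143, 1012 and 3339 CPM, and Lpl at 11.3, 22.6, 162 and 484 CPM. Thrsp was at 285 CPM in those of the adult. Cells without any of the endothelial marker UMIs numbered 2995 at E12, 1867 at E15 and 133 in the adult. They held Fabp4 at 10.4, 554 and 6170 CPM, beside 14.2, 183 and 2883 CPM in endocardial cells of these stages.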
